A study of Mus musculus with 9 samples.

Results

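The mammary epithelium secretes proteins that bind, starve or digest microbes, and 10 genes of this kind were followed here through early pregnancy: Dmbt1, Sftpd, Lcn2, Ang4, Lyz1, Ltf, Chi3l1, Cfb, C3 and Pigr. They were found by symbol or alias, with every probe annotated to them, and gave 13 probes of the 45281 on the array and 10 of the 19086 named genes. The genes were picked with their levels on these same arrays known, so their values and differences are given as a description, with no p-value. Of the 13 probes, 10 reached a mean signal of 100, the background level named in the study's design, in at least 1 group, and these covered 9 of the 10 genes. Pigr and 2 of the 3 Lyz1 probes did not reach it.

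Mucosal surfaces are guarded by secreted proteins before immune cells arrive. Dmbt1 is a scavenger receptor cysteine-rich glycoprotein that clumps bacteria, and Sftpd (surfactant protein D) is a collectin, a lectin that binds sugars on microbes and that can also bind Dmbt1. Lcn2 and Ltf withhold iron, Lyz1 cleaves bacterial cell walls, Ang4 is a ribonuclease with antimicrobial action best known from intestinal Paneth cells, and Chi3l1 is a chitinase-like protein without enzyme activity. C3 is the central protein of complement and Cfb is the protease of its alternative pathway, which amplifies C3 cleavage on microbial surfaces. Pigr carries IgA across epithelia into milk and other secretions.

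The arrays held luminal hormone receptor positive (HR+) cells of female FVB mice (FVB/N in the study's methods), taken from 3 virgin animals in metestrus, 3 animals at day 3 of a timed pregnancy and 3 animals at day 7. The labels give an age of 9 to 11 weeks for all mice, while the methods give 11 weeks for virgin mice at injection and 9 to 11 weeks for the others at mating, so the ages of the groups may differ. All mice, virgin mice included, had been injected with EdU (2 mg/g) 24 hours before harvest. From each mouse 1000 live cells outside the CD45 and stromal gates were sorted on CD24, CD49f, Sca1 and CD49b, and RNA equal to that of 167 cells was amplified in repeated rounds and hybridised to 1 Illumina array. The mean raw intensity was 284 to 316 on virgin arrays, 353 to 520 on day 3 arrays and 348 to 440 on day 7 arrays. The luminal keratin Krt8 lay between 13.87 and 14.80 and Foxa1, a factor of HR+ cells, between 8.96 and 10.38 on the log2 scale over the 9 arrays, while the brightest probe of the oestrogen receptor gene Esr1 lay between 6.54 and 7.13, little above the log2 background of 6.64. HR+ cells are thus defined here by their sort, since Ly6a, which encodes Sca1, was not analysed here and Itga2, which encodes CD49b, stayed under 100 on all arrays. All values below are log2 of the quantile normalised signal that the authors deposited, a gene is given by its brightest probe, and differences carry the standard error (SE) of a limma fit over all 9 arrays.

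The members did not move as a block. Dmbt1, Ang4 and Chi3l1 were lower on all arrays of both pregnant groups than on any virgin array, and so was Lcn2. Sftpd was higher at day 3 and higher again at day 7, and Cfb was higher at day 7 alone. Lyz1 was lower at day 3 than in virgin and day 7 cells. Ltf and C3 varied more between animals of 1 stage than between stages, and Pigr stayed at background. A gene was called where 1 of its probes had a fold of 2 or more with an adjusted p of 0.10 or less over all 18707 probes tested. By that rule 6 of the 10 members were called at day 3 against virgin, where 6.14% of the 11291 named genes tested were called, with 1 member higher (2.98% of genes) and 5 lower (3.16% of genes). At day 7 against virgin 5 members were called (7.58% of genes), 2 of them higher (3.73% of genes) and 3 lower (3.86% of genes). At day 7 against day 3, 3 members were called (5.05% of genes), all of them higher (2.76% of genes) and none lower (2.29% of genes). Since the members were chosen on these contrasts, nothing is read from these counts. In bulk RNA of sorted cells, fewer cells of a type and less RNA per cell cannot be told apart.

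**Figure D1:**
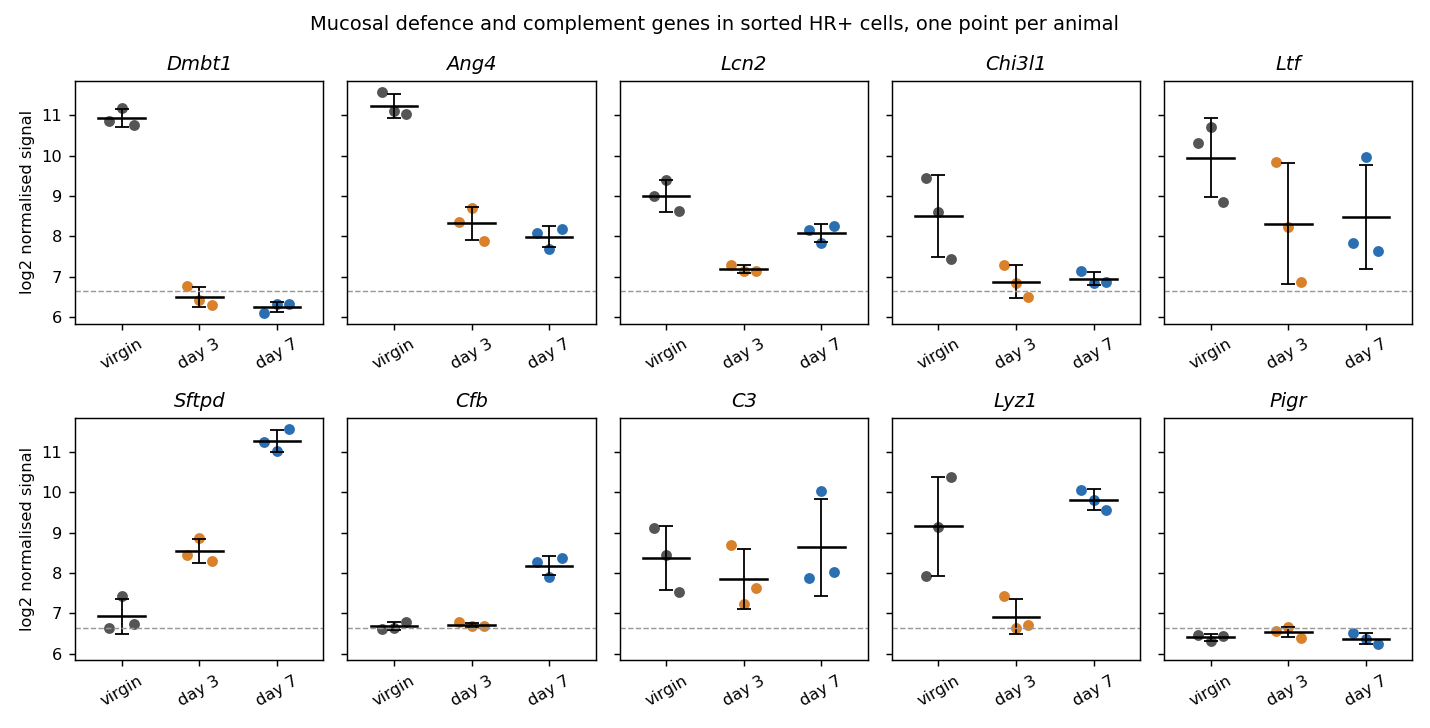
Log2 normalised signal (vertical axis) of the brightest probe of the 10 genes in virgin, day 3 and day 7 HR+ cells (horizontal axis), 1 point per animal, with the mean as a long bar, the SD of 3 animals as whiskers and the log2 background of 6.64 as a dashed line. Dmbt1 drops to the background line in both pregnant groups, Sftpd climbs to a mean of 11.28 at day 7, and the points of Ltf, C3 and virgin Lyz1 are spread widely.

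Dmbt1 was bright in virgin cells and at background in both pregnant groups. Its only probe (ILMN_2629239) read 10.86, 11.18 and 10.76 in virgin cells, 6.77, 6.42 and 6.29 at day 3, and 6.11, 6.32 and 6.32 at day 7. The virgin arrays all lay far above the background, 2 of the 3 day 3 arrays and all 3 day 7 arrays lay under it, and the pregnant and virgin groups did not overlap. The mean was 6.49 ± 0.25 at day 3, against 10.94 ± 0.22 in virgin cells (SD, n = 3 each), a log2 difference of -4.44 (SE 0.15) that runs below the background. Only limits can be given, with each array under the background set to it, and Dmbt1 was at least 19.0-fold lower at day 3 and at least 19.6-fold lower at day 7 than in virgin cells. The raw intensity spanned 1332 to 1950 on virgin arrays, 77.4 to 127 at day 3 and 70.7 to 84.2 at day 7.

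Sftpd, the other member that recognises microbes directly, ran the opposite way. It read 6.62, 7.42 and 6.73 in virgin cells, 8.45, 8.87 and 8.30 at day 3, and 11.25, 11.02 and 11.57 at day 7 (probe ILMN_1244169). The 3 groups formed 3 separate bands, with 1 virgin array under the background, so the folds against virgin cells may be too small. Its mean was 8.54 ± 0.30 at day 3, against 6.93 ± 0.43 in virgin cells (SD, n = 3 each), 3.06-fold higher, with a log2 difference of 1.61 (SE 0.24). At day 7 the mean was 11.28 ± 0.28, 20.4-fold above virgin cells and 6.68-fold above day 3 cells, with log2 differences of 4.35 and 2.74 (SE 0.24 each). Sftpa1, which encodes another lung collectin and lies near Sftpd on chromosome 14 with 1 protein-coding gene between them in the GRCm38.p6 annotation, had no probe above background.

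Ang4 followed Dmbt1 in direction. Its probe (ILMN_2819112) read 11.58, 11.10 and 11.04 in virgin cells, 8.36, 8.70 and 7.89 at day 3, and 8.09, 7.68 and 8.19 at day 7. The lowest virgin array lay well above the highest pregnant array, and the pregnant groups overlapped each other. The mean was 8.32 ± 0.41 at day 3 and 7.99 ± 0.27 at day 7, against 11.24 ± 0.30 in virgin cells (SD, n = 3 each), 7.57-fold and 9.52-fold lower, with log2 differences of -2.92 and -3.25 (SE 0.23 each). With each array scaled to a common median in place of quantile normalisation, the day 3 difference was -2.28.

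Lcn2, whose product lipocalin 2 binds the siderophores by which bacteria collect iron, was lowest at day 3. It read 8.99, 9.41 and 8.62 in virgin cells, 7.29, 7.13 and 7.14 at day 3, and 8.16, 7.84 and 8.26 at day 7 (probe ILMN_2712075). The 3 groups did not overlap, and day 7 lay between the others. The mean was 7.19 ± 0.09 at day 3, against 9.01 ± 0.40 in virgin cells (SD, n = 3 each), 3.53-fold lower, with a log2 difference of -1.82 (SE 0.19). At day 7 it was 8.09 ± 0.22, 1.89-fold lower than in virgin cells and 1.86-fold higher than at day 3, with log2 differences of -0.92 and 0.90. With median scaling the day 7 difference from virgin cells was -0.36.

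Chi3l1, named Chil1 in the annotation, read 9.45, 8.60 and 7.44 in virgin cells, 7.30, 6.83 and 6.50 at day 3, and 7.13, 6.84 and 6.86 at day 7 (probe ILMN_2609813). Virgin replicate 3 lay only just above day 3 replicate 1, and the virgin animals spread over a far wider range than the day 7 animals. Day 3 replicate 3 lay under the background, so the day 3 fold may be too small. The mean was 6.87 ± 0.40 at day 3 and 6.94 ± 0.16 at day 7, against 8.50 ± 1.01 in virgin cells (SD, n = 3 each), 3.08-fold and 2.94-fold lower, with log2 differences of -1.62 and -1.55 (SE 0.43 each). With single arrays left out, the difference ran from -2.15 to -1.14 at day 3 and from -2.08 to -1.08 at day 7.

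Promoters of the genes that were lower in both pregnant groups are shown, as far as the RefSeq table of the GRCm38.p6 build holds them, because these genes share a direction. Of the 10 members 7 had an entry, and Dmbt1, Sftpd and Cfb are named only. Each run is the 250 bases before the transcription start, 5' to 3' on the strand of the gene: Ang4 (chr14:51773591-51773840, minus strand), Lcn2 (chr2:32387740-32387989, minus strand) and Chi3l1 (chr1:134181906-134182155, plus strand). Capitals mark matches, on either strand, to the NF-kB pattern (GGG, any 5 bases, CC), the STAT pattern TTCNNNGAA, the C/EBP pattern TTNNGNAA or the TATA box TATAAA, and no matches of different patterns overlapped.
Ang4: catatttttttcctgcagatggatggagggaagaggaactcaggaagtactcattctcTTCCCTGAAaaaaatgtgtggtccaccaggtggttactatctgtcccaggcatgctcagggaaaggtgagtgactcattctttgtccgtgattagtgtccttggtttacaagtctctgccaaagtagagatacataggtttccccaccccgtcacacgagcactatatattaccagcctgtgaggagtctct
Lcn2: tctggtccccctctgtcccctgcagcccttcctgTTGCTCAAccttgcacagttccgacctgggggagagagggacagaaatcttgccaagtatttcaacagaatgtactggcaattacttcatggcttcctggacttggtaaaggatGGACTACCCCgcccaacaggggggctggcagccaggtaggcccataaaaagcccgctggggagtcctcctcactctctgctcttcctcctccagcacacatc
Chi3l1: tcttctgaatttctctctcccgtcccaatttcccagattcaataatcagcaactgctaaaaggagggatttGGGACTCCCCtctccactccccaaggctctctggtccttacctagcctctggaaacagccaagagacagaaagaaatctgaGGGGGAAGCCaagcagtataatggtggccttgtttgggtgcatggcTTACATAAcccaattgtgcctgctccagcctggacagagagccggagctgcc
Ang4 held 1 STAT match, at -192 from the start, and none of the other patterns. Lcn2 held 1 NF-kB match at -102 and 1 C/EBP match at -216, and Chi3l1 held 2 NF-kB matches, at -179 and -98, and 1 C/EBP match, at -52. Of all 32851 promoter windows of this length in the table, 45.8% held the NF-kB pattern, 36.8% the C/EBP pattern, 12.4% the TATA box and 7.02% the STAT pattern. No pattern was in all 3 promoters, and Lcn2 and Chi3l1 both held the 2 most frequent ones.

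Lyz1 was dim at day 3 and bright at day 7. Its brightest probe (ILMN_2878071) read 7.92, 9.15 and 10.39 in virgin cells, 7.42, 6.63 and 6.71 at day 3, and 10.07, 9.82 and 9.56 at day 7. All day 3 arrays lay under all others, the day 7 arrays were close together, and the virgin arrays spanned from near day 3 to above day 7. Day 3 replicate 2 lay under the background and replicate 3 just above it, so the folds against day 3 may be too small. The mean was 9.82 ± 0.25 at day 7, against 6.92 ± 0.43 at day 3 (SD, n = 3 each), 7.45-fold higher, with a log2 difference of 2.90 (SE 0.52). At day 3 it was 4.70-fold lower than in virgin cells, which averaged 9.15 ± 1.23, with a log2 difference of -2.23 (SE 0.52), and that difference was -1.62 without virgin replicate 3 and -2.85 without virgin replicate 1. Day 7 and virgin cells overlapped, with a difference of 0.66, which was 0.05 without virgin replicate 1, 1.28 without virgin replicate 3 and 1.25 with median scaling. The other 2 Lyz1 probes lay between 6.04 and 6.48, under the background on every array, so the pattern rests on 1 probe.

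Lyz2, the lysozyme gene of macrophages, lies next to Lyz1 on chromosome 10 with no protein-coding gene between them, and the genes are close paralogs, so signal from either cannot be separated with certainty on this array. The brightest Lyz2 probe read 7.07, 7.66 and 8.92 in virgin cells, 6.67, 6.65 and 6.69 at day 3, and 8.14, 8.15 and 7.95 at day 7. It shared with Lyz1 the highest virgin array, replicate 3, and the low day 3 level, which for Lyz2 lay just above the background. Lyz2 fell at day 3 by 1.21 on the log2 scale against virgin cells (adjusted p = 0.065 from limma) and was 1.41 higher at day 7 than at day 3 (adjusted p = 0.043 from limma). The first call was lost without virgin replicate 3 (-0.69), without any 1 day 3 array (adjusted p of 0.15 to 0.16), without the filter on dim probes or with the 2 groups alone (adjusted p = 0.12 each) and with median scaling (-0.99), and the other without any 1 day 3 array or without day 7 replicate 1 or 2 (adjusted p of 0.10 to 0.13). The promoters of the pair are shown because both genes were lowest at day 3 and, in virgin cells, highest on replicate 3. They are Lyz1 (chr10:117292869-117293118, minus strand) and Lyz2 (chr10:117282273-117282522, minus strand), with capitals for the same patterns.
Lyz1: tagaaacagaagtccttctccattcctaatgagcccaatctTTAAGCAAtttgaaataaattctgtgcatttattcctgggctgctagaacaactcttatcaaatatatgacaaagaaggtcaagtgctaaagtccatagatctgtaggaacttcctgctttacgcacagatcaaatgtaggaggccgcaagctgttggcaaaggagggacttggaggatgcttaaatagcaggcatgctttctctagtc
Lyz2: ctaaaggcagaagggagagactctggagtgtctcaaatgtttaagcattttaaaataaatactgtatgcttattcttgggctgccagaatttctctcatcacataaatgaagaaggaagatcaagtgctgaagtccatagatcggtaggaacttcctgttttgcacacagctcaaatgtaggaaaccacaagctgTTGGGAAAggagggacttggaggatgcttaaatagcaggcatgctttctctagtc
Aligned end to end, the 2 windows agreed at 200 of 252 positions, 79.4%. Each held 1 C/EBP match, at -209 in Lyz1 and at -55 in Lyz2, so the match did not lie at the same place.

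Lysozyme is also made by macrophages, and their markers were set beside Lyz1. Of 14 macrophage and dendritic cell markers with a probe, 6 were under 100 on all arrays, namely Adgre1, Itgam, Itgax, C1qa, C1qc and Fcer1g. The summed signal of the list without Lyz2 was 1234 to 1244 at day 3 and 1300 to 1354 at day 7, against 1364 to 1468 in virgin cells. The mean log2 value of the list, with Lyz2, ran from 6.56 to 6.84 over the arrays, close to the background. These sums thus hold much background signal. Cd74, the invariant chain of antigen presentation, read 7.31, 7.75 and 8.21 in virgin cells, 6.68, 6.85 and 6.69 at day 3, and 7.63, 7.03 and 7.10 at day 7, and it was highest on the virgin array with the highest Lyz1. It fell at day 3 by 1.02 on the log2 scale (adjusted p = 0.019 from limma), a call lost without virgin replicate 3 (-0.79), without day 3 replicate 1 or 3 (-0.99 each) and with median scaling (-0.75). Over the virgin arrays Csf1r read 7.38, 7.22 and 7.04 and Ptprc 6.69, 6.60 and 6.41, both lowest where Lyz1 was highest. The HR+ marker Tbx3 read 7.99, 8.63 and 9.67 on them, highest where Lyz1 was highest. Over all arrays Csf1r lay between 6.85 and 7.38, above the background, and the macrophage marker Adgre1 did not exceed 6.63. The part of macrophages and dendritic cells in the Lyz1 values was not tested.

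Ltf, which encodes the iron-binding milk protein lactoferrin, was bright but uneven. It read 10.30, 10.71 and 8.85 in virgin cells, 9.85, 8.23 and 6.87 at day 3, and 7.83, 9.96 and 7.63 at day 7 (probe ILMN_2754364). All 3 groups overlapped. The mean was 8.31 ± 1.49 at day 3 and 8.47 ± 1.29 at day 7, against 9.95 ± 0.98 in virgin cells (SD, n = 3 each), with log2 differences of -1.64 and -1.48 (SE 0.86 each). Without day 3 replicate 1 the day 3 difference was -2.40 and without day 3 replicate 3 it was -0.91, and without day 7 replicate 2 the day 7 difference was -2.22. With median scaling the day 3 difference was -0.97. The other Ltf probe lay between 6.24 and 7.10 on all arrays.

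Within each stage, the array with the most Ltf was also that with the most HR- luminal marker signal. Virgin replicate 2, day 3 replicate 1 and day 7 replicate 2 had the highest Ltf of their groups, and the same 3 arrays had the highest summed signal of 16 HR- luminal markers, a list without Ltf, at 32579 in virgin cells, 14858 at day 3 and 30991 at day 7. The lowest sums were 22309 in virgin cells, 11070 at day 3 and 18932 at day 7. Mfge8 made up most of these sums, at 14.50, 13.54 and 14.64 on the arrays with the highest. The mean log2 value of the list was also highest on those arrays, at 7.97, 7.49 and 8.16. Across stages the order differed, since day 3 replicate 1 had more Ltf than virgin replicate 3 (9.85 against 8.85) but a lower sum. Over the list, 4 of 16 markers (Lalba, Csn1s2a, Itga2 and Rspo1) were under 100 on all arrays. Csn3, a casein gene of HR- luminal cells, read 12.31, 12.72 and 11.87 in virgin cells, 10.05, 8.62 and 9.85 at day 3, and 9.78, 10.86 and 8.20 at day 7. Csn3, Mfge8, Trf, Kit and Sox10 peaked on the same array as Ltf at each stage. Elf5, close to the background, was highest on replicate 3 at day 3 (6.76) and at day 7 (6.92). Aldh1a3 and Cd14 were highest on replicate 1 in virgin cells (6.65 and 9.31), and Aldh1a3 on replicate 3 at day 7 (7.44). Csn2, close to the background at day 3, was highest there on replicate 3 (6.76) and lowest on replicate 1 (6.45), the array with the most Ltf. Csn1s1, Wap and Hey1 are not given by array here. The part of HR- cells in the Ltf values was not tested.

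**Figure D2:**
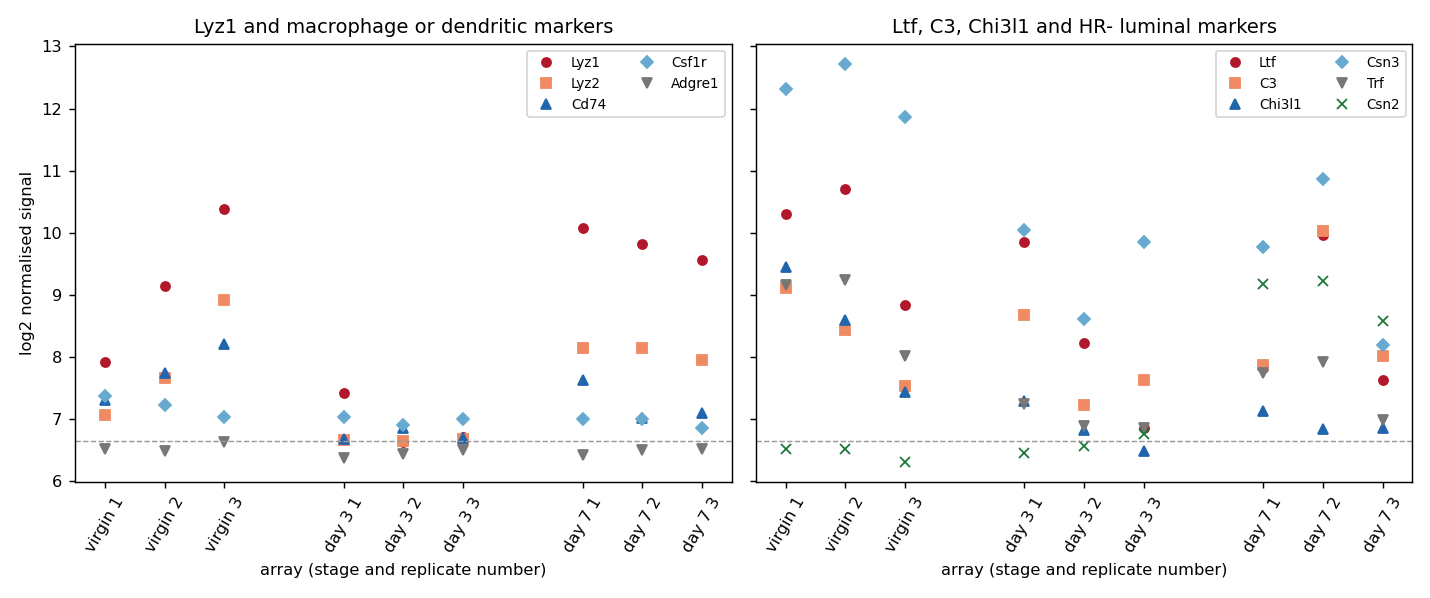
Log2 normalised signal (vertical axis) on each of the 9 arrays (horizontal axis, stage and replicate number), at left for Lyz1, Lyz2 and macrophage or dendritic cell markers and at right for Ltf, C3, Chi3l1 and HR- luminal markers, with the log2 background of 6.64 dashed. Lyz1 and Lyz2 both peak among virgin arrays at replicate 3, Adgre1 stays under the line on every array, and Ltf, C3, Trf and Csn3 all peak at replicate 2 among the day 7 arrays.

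C3 and Cfb act in the same step of the alternative pathway but differed in pattern. C3 read 9.11, 8.44 and 7.53 in virgin cells, 8.68, 7.23 and 7.62 at day 3, and 7.87, 10.03 and 8.02 at day 7. Its probe (ILMN_2759484) carried no name in the platform annotation and was named from the study's own list of secreted factors. The groups overlapped, with means of 7.85 ± 0.75 at day 3 and 8.64 ± 1.21 at day 7, against 8.36 ± 0.79 in virgin cells (SD, n = 3 each), and log2 differences of -0.52 and 0.28 (SE 0.64 each). Day 7 replicate 2, the array with the most Ltf at that stage, stood far above the other day 7 arrays, and without it the day 7 difference was -0.42. With median scaling the day 3 difference was 0.05, so its direction was not settled.

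Cfb read 6.60, 6.64 and 6.79 in virgin cells, 6.77, 6.67 and 6.69 at day 3, and 8.27, 7.91 and 8.36 at day 7 (probe ILMN_1230853). Virgin and day 3 arrays lay at the background and overlapped, while all day 7 arrays lay above them. The mean was 8.18 ± 0.24 at day 7, against 6.71 ± 0.05 at day 3 and 6.68 ± 0.10 in virgin cells (SD, n = 3 each). Day 7 cells were thus 2.76-fold above day 3 cells and 2.83-fold above virgin cells, with log2 differences of 1.46 and 1.50 (SE 0.13 each), and since day 3 and virgin cells sat at background these folds may be too small. At day 3 the difference from virgin cells was 0.04.

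Pigr, the IgA transporter, was read by 1 probe (ILMN_1225605) between 6.24 and 6.65 on the 9 arrays, with 8 of them under the background. Its mean was 6.54 ± 0.13 at day 3 and 6.37 ± 0.13 at day 7, against 6.40 ± 0.08 in virgin cells (SD, n = 3 each), so no level above background was detectable and the gene was not tested.

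**Figure D3:**
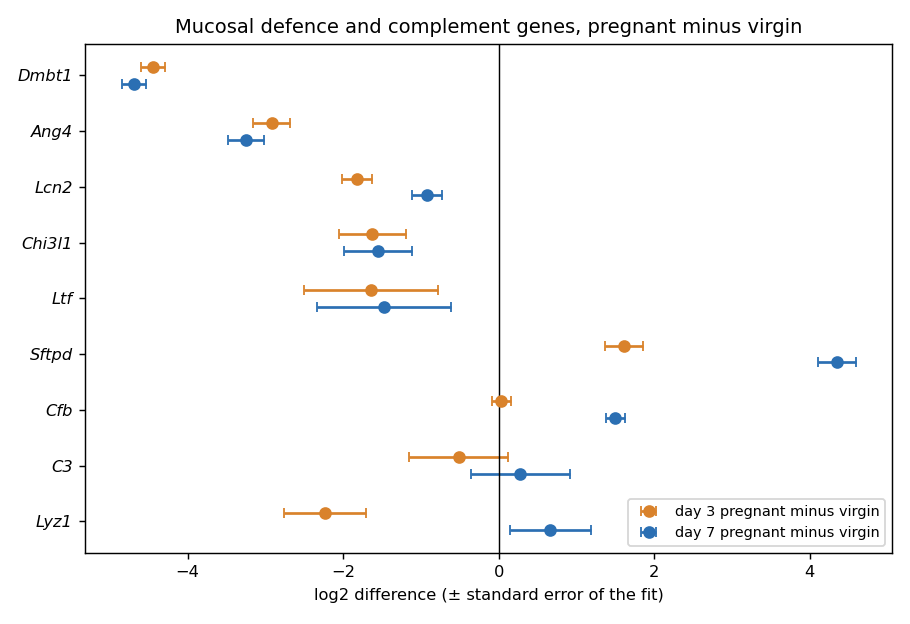
Log2 difference from virgin cells (horizontal axis) of the 9 genes with a probe above background (vertical axis), at day 3 and at day 7, with the standard error of the fit as bars. Dmbt1, drawn at its measured values under the background, and Ang4 lie furthest to the left in both comparisons, Sftpd lies furthest to the right at 4.35 on day 7, and the bars of C3 cross 0.

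The rest of the complement cascade was read from 2 lists. Of 17 genes of complement activation, all with a probe, 10 could be tested. C2, which encodes the protease of the classical and lectin pathways and neighbours Cfb on chromosome 17 with no protein-coding gene between them, and Hc, which encodes complement component 5, fell at day 3. C4a and C4b rose at day 7, where Hc fell. C2, C4a and C4b were higher at day 7 than at day 3. The median log2 difference of the tested genes was -0.08 at day 3 and 0.18 at day 7, beside -0.01 in both comparisons over all named genes.

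C2 read 10.95, 10.91 and 10.31 in virgin cells, 9.41, 10.01 and 8.90 at day 3, and 11.42, 10.64 and 11.07 at day 7. Day 3 lay under both other groups, which overlapped each other. The differences were -1.28 at day 3 against virgin (SE 0.31, adjusted p = 0.024 from limma) and 1.60 at day 7 against day 3 (adjusted p = 0.011), while at day 7 it differed from virgin cells by 0.32 (adjusted p = 0.53). With median scaling the day 3 call of C2 was lost, at -0.56. So C2 and its neighbour Cfb, at -1.28 and 0.04 on day 3, gave unlike values at that stage, a difference between the genes that was not tested.

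C4a and C4b, which encode the fourth component of the classical and lectin pathways, are near-identical and their probes cannot be fully told apart. C4b read 7.92, 8.09 and 7.16 in virgin cells, 7.99, 7.73 and 7.67 at day 3, and 9.67, 8.81 and 9.35 at day 7, with every day 7 array above all others. C4b rose by 1.55 at day 7 against virgin (SE 0.27, adjusted p = 0.0055 from limma) and C4a by 1.64 (SE 0.36, adjusted p = 0.015). Against day 3 the differences were 1.48 for C4b (adjusted p = 0.0090) and 1.45 for C4a (adjusted p = 0.034), the C4a call being lost without day 3 replicate 2 (1.41) or day 7 replicate 1 (1.17). Hc read 8.26, 7.61 and 8.15 in virgin cells, 7.05, 6.84 and 7.01 at day 3, and 6.91, 6.50 and 6.25 at day 7, where 2 arrays were under the background. It fell at day 7 (adjusted p = 0.0019 from limma), and was at least 2.42-fold lower than in virgin cells with the 2 dim arrays set to the background. At day 3 it fell by 1.04 (adjusted p = 0.011 from limma), where the call was lost without day 3 replicate 2 (-0.98), without virgin replicate 1 (-0.91) or 3 (-0.97), with median scaling (-0.67) and with cyclic loess (-0.94).

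Of 16 complement regulators and receptors, 15 had a probe and 9 could be tested, and none of them passed at day 3. Vtn, which encodes vitronectin, an inhibitor of the membrane attack complex, read 6.47, 6.33 and 6.43 in virgin cells, 6.27, 6.59 and 6.35 at day 3, and 8.19, 7.84 and 7.36 at day 7. It stayed under the background in virgin and day 3 cells and was at least 2.22-fold higher at day 7 than in either group (adjusted p = 0.0017 against virgin and 0.0026 against day 3, from limma). Cd59a, a membrane inhibitor of the same complex, read 11.73, 11.66 and 11.29 at day 7, against 10.53, 10.35 and 10.48 at day 3, a difference of 1.10 (adjusted p = 0.0079 from limma). At day 7 against virgin it differed by 0.78, under the fold asked for (adjusted p = 0.026). The median of the list was -0.13 in both comparisons with virgin cells.

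**Figure D4:**
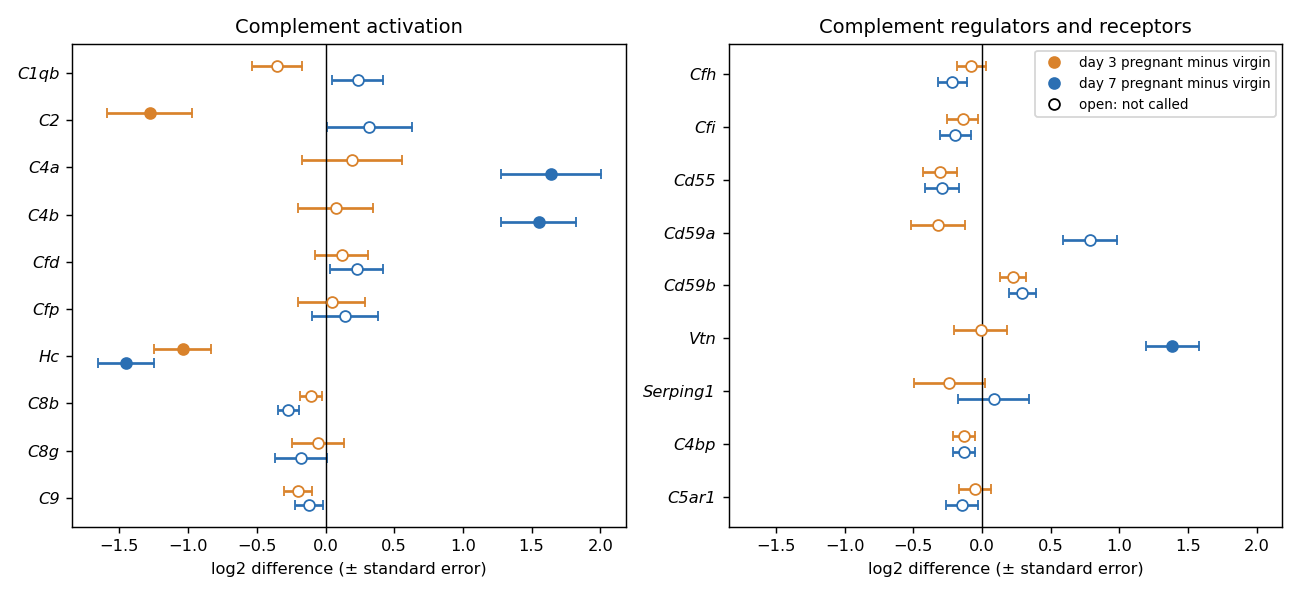
Log2 difference from virgin cells (horizontal axis, with standard errors) of the tested genes of complement activation and of the complement regulators and receptors (vertical axis), at day 3 and at day 7, with filled points for called genes. The day 7 points of C4a and C4b lie to the right at 1.64 and 1.55, that of Vtn is drawn at its measured 1.39 although its virgin arrays were all under the background, the C2 point lies to the left at day 3 alone, and Hc lies to the left at both stages.

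Collectins and scavenger receptor cysteine-rich genes other than Sftpd and Dmbt1 were mostly dim, with 6 of 18 tested. Masp2, the protease that collectins and ficolins activate, read 7.12, 7.31 and 7.74 in virgin cells, 7.55, 7.22 and 6.96 at day 3, and 8.43, 9.10 and 8.70 at day 7. It rose by 1.35 at day 7 against virgin (SE 0.22, adjusted p = 0.0042 from limma) and was 1.50 higher than at day 3 (adjusted p = 0.0037). Its other tested probes were under the background on all virgin arrays and at least 1.35-fold and 1.86-fold higher at day 7. None of the 6 passed at day 3, where the median difference was -0.12.

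Among 14 genes of the lysozyme family and of granule proteins, 6 were tested, and besides Lyz2 the lysozyme-like gene Lyzl4 passed, at day 7 against day 3. Lyzl4 read 10.70, 11.44 and 11.19 at day 7, against 8.97, 8.68 and 9.50 at day 3, with no overlap and a difference of 2.06 (SE 0.38, adjusted p = 0.0088 from limma). In virgin cells it read 9.21, 10.69 and 10.32, and neither pregnant group passed against them (-1.03 at day 3 and 1.03 at day 7, adjusted p = 0.11 and 0.101 from limma). These 2 values passed under 6 and 7 of the 22 other settings tried. Of the 10 neutrophil markers with a probe, 4 were under 100 on all arrays. Their summed signal was 912 to 931 at day 3 and 909 to 957 at day 7, against 915 to 960 in virgin cells. The mean log2 value of these 10 markers was 6.49 to 6.57, under the background on every array. Their sums are thus largely background signal. Of 12 ribonuclease A genes, the family of Ang4, 8 had a probe, 3 were tested and none passed in any comparison, with an adjusted p of 0.46 or more at day 3 for Ang and Rnase4, where Ang differed by -0.11 and Rnase4 by 0.01.

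Of 13 lipocalin and iron binding genes besides Lcn2 and Ltf, 7 were tested, and Trf, which encodes transferrin, and Hp, which encodes haptoglobin, fell at both stages. Hp read 10.62, 10.77 and 9.65 in virgin cells, 8.55, 8.48 and 8.59 at day 3, and 9.24, 8.81 and 9.52 at day 7, so that day 3 was lowest and day 7 lay between, as with Lcn2. Hp fell by 1.81 at day 3 (SE 0.28, adjusted p = 0.0036 from limma) and at day 7 by 1.16 (adjusted p = 0.024), a call that median scaling (-0.55) ended, as did the absence of virgin replicate 2 (-0.95) or of day 7 replicate 2 (-0.97). Its other tested probe, near the background at 6.52 to 6.90 on all arrays, showed differences of 0.03 and -0.10. Trf fell by 1.80 at day 3 (SE 0.35, adjusted p = 0.0095 from limma) and at day 7 by 1.25 (adjusted p = 0.040), a call that ended with median scaling (-0.77) and in the absence of virgin replicate 1 (-1.07) or 2 (-1.03) or of day 7 replicate 3 (-0.97). Tfrc, the transferrin receptor gene, read 8.26, 8.33 and 8.32 at day 7, against 9.40, 9.29 and 9.46 at day 3, a difference of -1.08 (SE 0.08, adjusted p = 0.00024 from limma).

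Genes of immunoglobulin transport were few, with 3 of 8 tested, and Fcgrt, which encodes the neonatal Fc receptor for IgG, was the one that passed. Fcgrt read 11.12, 11.44 and 10.71 in virgin cells, 9.86, 9.44 and 10.43 at day 3, and 11.69, 11.68 and 11.33 at day 7. It fell by 1.18 at day 3 against virgin (SE 0.26, adjusted p = 0.018 from limma), a call lost without day 3 replicate 2 (-0.95) and with median scaling (-0.49). It was 1.65 higher at day 7 than at day 3 (adjusted p = 0.0049 from limma). The Pigr values above stayed at background at all stages, while both Fcgrt probes were bright. Of 6 chitinase family genes besides Chi3l1, 1 was tested and it did not pass in any comparison, with differences of 0.25 at day 3 and -0.02 at day 7.

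Of 31 genes of epithelial antimicrobial peptides and mucins, 27 had a probe and 8 were tested. Defb1, which encodes an epithelial defensin, and the mucin genes Muc1 and Muc20 rose at day 7, and Reg3g, which encodes a bactericidal lectin, fell at both stages. Defb1 read 10.20, 9.81 and 10.64 at day 7, against 7.40, 9.23 and 8.51 in virgin cells, a difference of 1.84 (SE 0.40, adjusted p = 0.0145 from limma). Muc1 read 8.68, 8.01 and 8.67 at day 7, against 6.47, 6.68 and 6.52 in virgin cells, and rose (adjusted p = 0.00033 from limma), at least 3.48-fold with the 2 dim virgin arrays set to the background. Of its other tested probes, 1 differed by 0.96 and the other, under the background on all virgin arrays, was at least 1.10-fold higher. Muc1 was 1.11 higher at day 7 than at day 3 (adjusted p = 0.0066 from limma), a call lost without day 7 replicate 1 (0.99) or 3 (1.00). Muc20 rose at day 7 (adjusted p = 0.00021 from limma), at least 2.41-fold with 2 dim virgin arrays set to the background. Reg3g read 6.62, 6.40 and 6.41 at day 7, all under the background, against 7.07, 8.22 and 7.97 in virgin cells, and was at least 2.15-fold lower (adjusted p = 0.0096 from limma). At day 3 Reg3g fell by 1.05 (adjusted p = 0.025), a call lost without virgin replicate 2 (-0.82) or 3 (-0.94), with median scaling (-0.82) and with cyclic loess (-0.99).

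Receptors and regulators that can switch on defence genes were the best covered list, with 24 of 28 tested. At day 3 there were 4 genes that fell and 1 that rose, at day 7 there were 4 that fell and none that rose. Over all named genes 3.16% were lower and 2.98% higher at day 3, and 3.86% were lower and 3.73% higher at day 7. The list was chosen with earlier results of these data known, so nothing is read from setting its counts beside these. The median difference was -0.28 at day 3 and -0.22 at day 7, beside -0.01 over all named genes. Socs3, the feedback inhibitor of STAT3 signalling, read 9.68, 9.32 and 10.07 at day 3 and 9.89, 9.71 and 9.90 at day 7, against 11.39, 12.21 and 11.91 in virgin cells. It fell by 2.15 at day 3 and 2.00 at day 7 (SE 0.23 each, adjusted p = 0.00062 and 0.00070 from limma). Cebpd, which encodes C/EBP delta, rose by 1.43 at day 3 (SE 0.22, adjusted p = 0.0034 from limma).

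Tnfaip3, a feedback inhibitor of NF-kB, fell at both stages, by 1.05 at day 3 and 1.15 at day 7 (adjusted p = 0.0092 and 0.0054 from limma). Nfkbia, another inhibitor, fell by 1.00 at day 3 (adjusted p = 0.0019), Nfkbiz by 1.08 at day 7 (adjusted p = 0.0087), and Tlr4, the receptor for lipopolysaccharide, by 1.13 at day 7 (adjusted p = 0.0135). Relb, an NF-kB subunit named here after its values were seen, fell by 1.05 at day 3 (adjusted p = 0.021 from limma). These calls lay close to the fold asked for. With median scaling these calls were lost, that of Relb included. Tnfaip3 then differed by -0.34 and -0.56, Nfkbia by -0.34, Nfkbiz by -0.55 and Tlr4 by -0.74, and no such value is given for Relb. Tnfaip3 was also lost without virgin replicate 1 (-0.87 at day 3 and -0.97 at day 7) and, at day 3, without day 3 replicate 3 (-0.92), Nfkbia without virgin replicate 3 (-0.92) or day 3 replicate 2 (-0.90), Nfkbiz without virgin replicate 3 (-0.91) or day 7 replicate 3 (-0.89), and Tlr4 without virgin replicate 3 (-0.91) or day 7 replicate 3 (-0.91).

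Over the 10 lists together, 77 of 163 genes were tested. At day 3, 1 of these rose and 11 fell, beside 2.98% and 3.16% of all named genes. At day 7 the numbers were 7 and 8, beside 3.73% and 3.86%. At day 7 against day 3, 10 were higher and 1 was lower, beside 2.76% and 2.29%. The median log2 difference of the 77 genes was -0.10 at day 3, -0.13 at day 7 and 0.03 at day 7 against day 3, beside -0.01 in each comparison over all 11291 named genes tested. The comparisons with virgin cells share the virgin arrays, and their counts are therefore not independent. The lists were chosen with earlier results of these data known, so nothing is read from their counts beside those of all named genes. With median scaling the counts at day 3 were 3 higher and 3 lower, and at day 7 they were 11 higher and 3 lower.

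The patterns most like those of the members were sought among 15950 named probes by the root mean square (RMS) difference of centred log2 values over the 9 arrays, where a smaller value means a closer pattern. The closest gene to Cfb was Cyp2c70 (0.11), to Lcn2 it was Hp (0.20), to Ang4 it was Rasgrf1 (0.22), and to Chi3l1 it was Eif4a2 (0.33). The closest gene to Sftpd was Hif3a (0.39), to C3 it was Lhfpl2 (0.43), to Dmbt1 it was Ido1 (0.52), to Ltf it was Cnnm2 (0.61), and to Lyz1 it was Lyz2 (0.68). Next in order came Hbs1l and Hsd11b2 for Cfb, Rhbdl2 and Elapor1 for Lcn2, Slc5a5 and Tmprss2 for Ang4, Ly6g6c and Ifnb1 for Chi3l1, and Mdk and Igfals for Sftpd. For Dmbt1 they were Cyp3a57 and Ly6d, for C3 C430049B03Rik and Esm1, for Ltf Cyp2d22 and Cdhr1, and for Lyz1 Tbx3 and Sox4. The 9 arrays come from 3 groups, and no test goes with these values.

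Markers of HR+ and of other cells moved with the stages too, and their part in the values of the members was not tested. The summed signal of 10 HR+ markers was 30337 to 31528 at day 3 and 26295 to 27521 at day 7, against 33319 to 46691 in virgin cells. Krt8 and Krt18 made up 83.6 to 93.7% of that sum on each array, and the mean log2 value of the list was 9.22 to 9.27 at day 3 and 9.36 to 9.61 at day 7, against 9.26 to 9.40 in virgin cells. Cited1 and Tnfsf11 of that list rose and Pgr and Tbx3 fell at day 3, and Tnfsf11 and Wnt4 rose and Pgr and Foxa1 fell at day 7, the falls of Pgr and Foxa1 being lost with median scaling. The summed signal of the HR- luminal markers was 11070 to 14858 at day 3 and 18932 to 30991 at day 7, against 22309 to 32579 in virgin cells. Csn3 fell by 2.79 at day 3 and by 2.69 at day 7 (adjusted p = 0.019 and 0.020 from limma), while the casein gene Csn2, under the background on all virgin arrays, rose at least 5.09-fold at day 7 (adjusted p = 4.8e-05 from limma). The summed signal of 8 basal markers was 1425 to 4705 at day 3 and 3244 to 13366 at day 7, against 812 to 1762 in virgin cells, with Krt5 and Oxtr under 100 on all arrays. Of the 5 basal markers tested, Krt17 rose by 2.83 at day 3 and 3.66 at day 7 (adjusted p = 0.0017 and 0.00036 from limma) and Trp63 rose by 1.86 at day 7 (adjusted p = 0.019 from limma), and the list median at day 7 was 1.93. Of 8 lymphocyte markers with a probe, 5 were tested and none of these passed in any comparison. The sum of the 8 was 732 to 758 at day 3 and 692 to 733 at day 7, against 719 to 845 in virgin cells. The mean log2 value of these markers ran from 6.43 to 6.68 and exceeded the background on virgin replicate 1 alone. Their sums are thus largely background signal.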

How the data were processed

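RNA of sorted HR+ cells from 9 mice, 3 per stage, was measured on Illumina WG-6 bead arrays. Per the design text of the series, raw signals were log2 transformed and quantile normalised in Partek Genomics Suite before the authors deposited the log2 table used for all main values. A deposited table of raw intensity on the linear scale served for the raw ranges and for other normalisations, and its quantile normalised values differed from the deposited log2 values by 0.0238 on average and 0.118 at most. The columns for detection p held no values. How beads were summarised to probes is not given in the sources used here.

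Of 45281 probes, 34936 were named, 34885 from the platform annotation with symbols updated through Entrez numbers and 51, C3 among them, from the study's list of secreted factors. The 18 probes with several genes were not named from the annotation. Probes were tested where the mean of a group reached 100 (6.64 on the log2 scale), which left 18707. The dim arrays limit precision, since 28.1 to 48.4% of raw probe values per array reached 100. Folds against a group with all arrays under 100 are lower bounds, set by the mean of the other group over the log2 background, and where 2 of 3 arrays were under it and their group mean too, those arrays were raised to it.

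All 9 arrays entered 1 linear model in R 4.3.3 with limma 3.58.1, without covariates, and p-values were adjusted by Benjamini and Hochberg over all probes tested. The scripts were tested on simulated data. Each group has 3 mice, so an exact permutation test could not go below p = 0.10 for a single gene. Named in the text are all 10 members, up to 4 called genes with the largest difference per list and comparison, marker genes, and the 3 genes nearest in pattern to each member. The members and the 10 lists of related genes were chosen with earlier results of these data known. The adjusted p-values of related genes do not allow for this choice, nor for the choice of genes to name. Gene order came from the RefSeq annotation of GRCm38.p6, and the array's own build is not given in the sources used here. Figures were drawn with matplotlib 3.10.9 in Python 3.11.15.

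The alternatives were quantile normalisation of the raw intensity, median scaling, cyclic loess, normexp background correction with quantile normalisation, no filter, a filter that asks for 100 on each of the 3 arrays of a group, the methods' Cyber-T test, fits of the 2 groups compared, an intensity trend, an adjusted p threshold of 0.05, calls without a minimum fold, the brightest probe alone, the replicate number as a block, and each array left out in turn. Ang6, Ear1, Ear2, Rnh1, Clu, Igha, Ighm, Defb3, Pglyrp2, Muc5b, Nfkb1, Prlr, Ly6a, Areg, Cd68 and Cd79a, among others on the lists, were not analysed here.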

Additional observations from a re-analysis of the deposited data

Results flagged for a closer look

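For 11 related genes the difference from virgin cells was not the same at day 3 and at day 7, by the limma test of day 7 against day 3. Among complement genes, day 7 exceeded day 3 by 1.60 on the log2 scale for C2, by 1.48 for C4b, by 1.45 for C4a, by 1.39 for Vtn and by 1.10 for Cd59a. The day 3 arrays of Vtn were all under the background, so that its value stands for a difference of at least 2.22-fold. Masp2, the protease of the lectin pathway, was 1.50 higher at day 7 than at day 3. The lysozyme family genes Lyzl4 and Lyz2 were 2.06 and 1.41 higher. Fcgrt, the Fc receptor gene, was 1.65 higher, and Muc1 was 1.11 higher. Tfrc, the transferrin receptor gene, was the only 1 of the 11 that was lower at day 7 than at day 3, by -1.08. Cd74 differed by 0.51 at day 7 against day 3 (adjusted p = 0.21 from limma), and the calls of Lyz2, C4a and Muc1 were lost without some single arrays.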

How the results depend on the processing

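The values of the members kept their direction wherever they were called, and 13 of their 594 values under other settings moved by more than the replicate spread of the gene. By that measure genes with a wide spread could hardly count as moved. C3 at day 7 against virgin ran from -0.42 to 0.80 and did not count. Ltf at day 7 against day 3 ran from -0.59 to 0.93 and did not count either. Of 1980 values of the related genes named under other settings, 58 lost and 40 gained a call and none of the called values reversed. Median scaling moved the median of all tested probes to 0.21 at day 3 and 0.18 at day 7, from -0.01 in both with quantile normalisation. With it 1688 genes were called at day 3 (1593 higher and 95 lower, 94.4% higher, against 48.5% higher of the 693 with quantile normalisation) and 1577 at day 7 (1395 higher and 183 lower, 88.4% against 49.1% of 856, with 1 gene counted both ways each time), and 6 in place of 12 related genes were called at day 3. At day 7 against day 3 it gave 43.5% higher, against 54.7%. Without a minimum fold, 2835 genes were called at day 3, 3257 at day 7 and 2513 at day 7 against day 3 in place of 570, with 21 related genes at day 3 and 20 at day 7 against day 3 in place of 11. The cause was not tested.

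Leaving out each array in turn gave 637 to 766 genes at day 3, 831 to 958 at day 7 and 473 to 612 at day 7 against day 3. Related genes called were 9 to 12, 12 to 15 and 8 to 12, and members called were 5 to 6, 4 to 7 and 3 to 4. Deviations of arrays with the same replicate number gave r of -0.053 to 0.073 over probes, and those with different numbers -0.072 to 0.072. Same-number r was 0.073, 0.043 and 0.069 between virgin and day 7 arrays, and -0.044, -0.053 and -0.029 between virgin and day 3 arrays. With 3 arrays per group these values cannot decide whether the numbers pair the animals. With the replicate number as a block, 689, 856 and 573 genes and 13, 16 and 11 related genes were called. The BeadChip as a block was not run, because the tables name no chip. The dim signal limits Dmbt1 at both pregnant stages, Cfb before day 7 and Pigr at all stages. It also limits Sftpd in virgin cells and Lyz1 and Chi3l1 at day 3, with 1 array of each under the background. Lyz2 lay just above the background at day 3.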
